A study of Mus musculus with 6 samples.

Results

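The genes described here are 10 that act between a signal inside a lymphocyte and the switching on of its integrins: Tln1, Fermt3, Vcl, Rap1a, Rap1b, Rassf5, Sipa1, Apbb1ip, Skap1 and Fyb. They were chosen by name from the pathway, and each symbol matched 1 of the 55536 Ensembl identifiers in the count table. All 10 had enough counts to be tested, among 18690 tested genes. The samples were thymocytes, the developing T cells of the mouse thymus, from mice in steady state. Of the 6 mice, 3 were labelled Il3ra-/- and lacked, per that label, the alpha chain of the interleukin-3 receptor, and 3 were labelled Il3ra+/+ and served as wildtype. Each mouse gave 1 library. Strain, age, sex and the deleted part of the allele were not stated in those labels. The comparison asks how thymocytes differ between the genotypes, in a study whose title concerns the mechanics of regulatory T cells and how they leave tissue.

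Integrins are adhesion receptors that circulate on leukocytes in a low-affinity state. Antigen receptors and chemokine receptors raise that affinity from inside the cell by loading the small GTPase Rap1 with GTP. Active Rap1 recruits effectors that bring talin and kindlin to the cytoplasmic tail of the integrin beta chain, and vinculin then ties the complex to actin. In T cells this pathway serves adhesion to other cells, migration and contact with antigen-presenting cells.

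Promoter sequence is given for 3 of the genes. Vcl, Sipa1 and Fermt3 are the ones with the smallest unadjusted p-values below, and Vcl lay on the opposite side from the other 2. Each run is the 250 bases before the RefSeq transcript start (GRCm38.p6), 5′ to 3′ on the gene's own strand, and no annotated exon lies in it. Capitals mark a CArG box, the binding motif of serum response factor, in Vcl, the motif GGGCGG read on the opposite strand in Sipa1, and the motifs CAGGTG and TGTGGT in Fermt3. The windows are chr14:20929148-20929397 on the plus strand for Vcl, chr19:5663708-5663957 on the minus strand for Sipa1 and chr19:7019470-7019719 on the minus strand for Fermt3.
Vcl: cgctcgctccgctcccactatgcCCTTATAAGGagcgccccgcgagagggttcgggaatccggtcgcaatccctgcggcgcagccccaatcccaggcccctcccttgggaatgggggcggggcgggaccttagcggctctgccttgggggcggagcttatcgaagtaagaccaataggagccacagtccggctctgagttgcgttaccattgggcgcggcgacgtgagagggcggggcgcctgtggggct
Sipa1: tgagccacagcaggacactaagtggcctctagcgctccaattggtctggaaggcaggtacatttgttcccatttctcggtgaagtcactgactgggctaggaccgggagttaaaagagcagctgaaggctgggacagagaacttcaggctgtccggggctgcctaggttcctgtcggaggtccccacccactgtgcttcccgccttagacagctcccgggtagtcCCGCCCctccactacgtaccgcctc
Fermt3: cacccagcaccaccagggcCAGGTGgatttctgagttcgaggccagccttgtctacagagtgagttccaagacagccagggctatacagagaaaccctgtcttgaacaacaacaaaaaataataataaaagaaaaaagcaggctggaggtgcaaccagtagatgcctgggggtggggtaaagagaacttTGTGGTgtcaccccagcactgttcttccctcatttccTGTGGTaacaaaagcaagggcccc

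The motifs were searched on both strands, and the motifs do not overlap each other where marked. The CArG box of Vcl lies 227 to 218 bases before the start and reads the same on both strands. Of 32851 promoter windows of this length, 1.47% held a CArG box, and of the 8 genes described here that the promoter table holds, Vcl was the one with it. GGGCGG was in 32.7% of the windows and in 4 of the 8 (Vcl, Rap1b, Rassf5 and Sipa1), at 25 to 20 bases before the Sipa1 start. CAGGTG was in 17.2% of the windows and TGTGGT in 14.05%, each in Fermt3 alone of the 8. A match is a description of the sequence. Tested genes with a CArG box numbered 158, and their median log2 fold between the genotypes was -0.01, with 17.7% at an unadjusted p under 0.05 against 16.2% of the 11125 tested genes in the promoter table.

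Total counts were 59135254 to 82684219 in the libraries labelled knockout and 55747682 to 66534218 in wildtype. Il3ra itself (chromosome 14, 14346275 to 14356011) was not lower in the labelled knockout, at 7.78 ± 0.346 CPM against 6.81 ± 0.882 CPM in wildtype (SD, n = 3 each). CPM is the usual depth-scaled count, here on TMM-scaled library sizes. The gene-level count would include a transcript that lacks the deleted exons, so the labels are not checked by this gene, and directions are those of the libraries labelled knockout. Over all genes, edgeR's quasi-likelihood test called 17 (0.091% of those tested), 3 of them higher (0.0161%) and 14 lower (0.0749%) in the labelled knockout at a Benjamini-Hochberg adjusted p under 0.05. Replicate 1 of each genotype had 88078 or more Xist counts and the other 4 libraries had 57 or fewer, so 1 library of each genotype stood apart by this X-linked transcript. The labelled thymocyte identity was borne out by 10 thymocyte genes, including Cd4, Cd8a, Rag1 and Dntt, which summed to 10300 to 10876 CPM in the labelled knockout and 11610 to 12837 CPM in wildtype. The p-values set the genotype difference against the spread between mice of a genotype. No source states that the mice came from separate litters or days, so effects of litter or day cannot be told apart from genotype.

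None of the 10 genes passed edgeR's test over all genes (adjusted p = 0.186 to 0.979), and 3 had an unadjusted p under 0.05, of which 1 (Vcl) was higher and 2 (Sipa1 and Fermt3) were lower in the labelled knockout. Over all tested genes that unadjusted level was met by 14.6%, with 8.01% higher and 6.6% lower. The CPM of the genotypes did not overlap in 5 of the 10, again Vcl on the higher side and Tln1, Fermt3, Sipa1 and Rassf5 on the lower side, against 20.3% of all tested genes (10.9% higher and 9.38% lower). The median log2 fold of the 10 was -0.06, and it was 0.01 over all tested genes. DESeq2's Wald test called 1 of the 10 (Vcl), where it called 4.02% of its tested genes. Of the 10, limma-voom called 0, where it called 0.0963% of all tested genes. It put 4 at an unadjusted p under 0.05, where 14.5% of all tested genes met that level. In bulk samples fewer cells of a type and less RNA per cell cannot be told apart, which holds for every level given here.

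**Figure D1:**
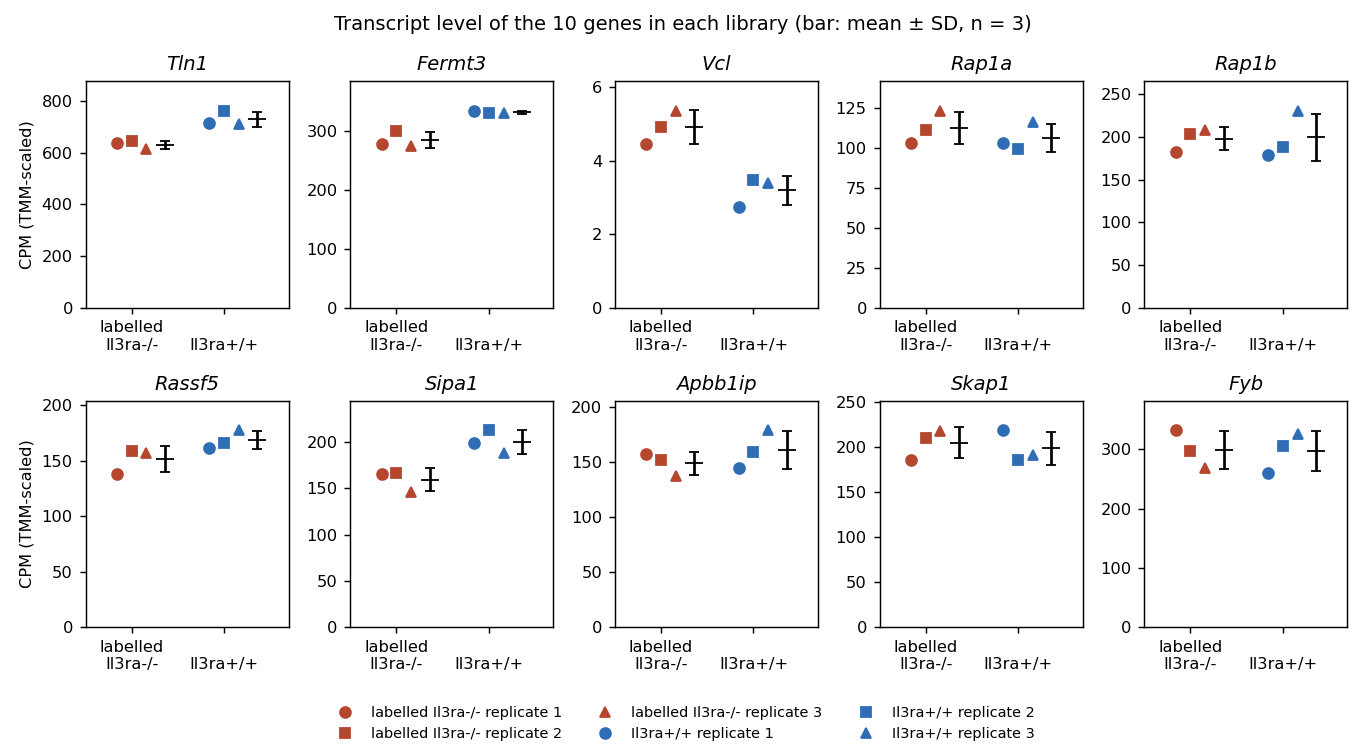
Transcript level of each of the 10 genes in the 6 libraries, in TMM-scaled CPM on axes that start at 0, with symbols for the replicate and a bar for the mean ± SD (n = 3). Vcl sits between 4.44 and 5.36 CPM in the libraries labelled Il3ra-/-, all above the wildtype libraries, whereas Tln1, Fermt3, Rassf5 and Sipa1 sit below theirs and the other 5 genes overlap.

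Talin and kindlin, which bind the integrin tail directly, were both at lower values in the libraries labelled knockout. Tln1 encodes talin-1, whose head domain opens the integrin and whose rod binds vinculin and actin (chromosome 4, 43531519 to 43562691, minus strand). It had 638, 644 and 615 CPM in the labelled knockout, against 714, 764 and 713 CPM in wildtype (here and below in the order of replicates 1 to 3). Every labelled knockout library lay below every wildtype library. The fold was 0.866 (95% interval 0.746 to 1.005; edgeR, unadjusted p = 0.0564, Benjamini-Hochberg adjusted p = 0.361). Fermt3 encodes kindlin-3, the kindlin of blood cells, which binds the same tail beside talin (chromosome 19, 6998958 to 7019469, minus strand). It had 279, 301 and 275 CPM in the labelled knockout, against 335, 330 and 331 CPM in wildtype. The wildtype libraries lay close together (SD 2.41 CPM, n = 3), and even the highest labelled knockout library, replicate 2, was below all of them. The fold was 0.858 (95% interval 0.743 to 0.990; edgeR, unadjusted p = 0.0385, adjusted p = 0.310).

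Vinculin was the one gene of the 10 whose labelled knockout libraries all lay above wildtype, and it was also the least abundant. Vcl encodes vinculin, which links talin to actin filaments when the adhesion bears load (chromosome 14, 20929398 to 21033676, plus strand). Reads assigned to it numbered 269, 413 and 373 in the labelled knockout, against 163, 200 and 221 in wildtype. These are 4.44, 4.92 and 5.36 CPM in the labelled knockout, against 2.73, 3.46 and 3.39 CPM in wildtype. The lowest labelled knockout library, replicate 1, was above the highest wildtype library, replicate 2. The fold was 1.54 (95% interval 1.16 to 2.03), a log2 fold of 0.62 ± 0.184 (SE; edgeR, unadjusted p = 0.00608, adjusted p = 0.186). By DESeq2's Wald test the adjusted p was 0.0407, and over 14 alternatives the adjusted p ran from 0.0407 to 0.634 with the log2 fold between 0.52 and 0.69.

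Several properties of the Vcl measurement stand beside that value. The 3′ end of Vcl overlaps exons of Ap3m1, a subunit gene of an endosomal adaptor on the opposite strand, and 25.1% of the distinct 50-base runs in Vcl transcripts also occur in Ap3m1 transcripts, on either strand. The strand setting of the counting is not known here, so reads there cannot be assigned. Ap3m1 itself had 44.4 ± 2.27 CPM in the labelled knockout and 43.5 ± 1.67 CPM in wildtype (SD, n = 3 each), a fold of 1.02 (edgeR, adjusted p = 0.916). Vcl lies 6.57 Mb from Il3ra on the same chromosome, so an effect of the targeted allele's flanking DNA and an effect of the missing receptor cannot be told apart by these samples. Within 10 Mb of Il3ra, 16 of 113 tested genes (14.2%) had an unadjusted p under 0.05, where 14.6% of all tested genes did. Of the 113, 5 had a p at or below that of Vcl, Vcl itself included, and Vcl ranked 611 by p among all 18690 tested genes. Vcl is also a gene of stromal and endothelial cells. Of 6 markers of those cells, Pdgfrb had 7.19, 9.25 and 9.73 CPM in the labelled knockout against 4.998, 6.07 and 6.05 CPM in wildtype, and Cdh5, the endothelial cadherin, had 0.677, 0.810 and 2.96 CPM against 0.369, 0.450 and 0.444 CPM. Both were without overlap between the genotypes on the higher side, as were 10.9% of all tested genes. The fibroblast collagen genes Col1a1 and Col1a2 were under 1 CPM in every library. Of the 6 markers, 5 were tested, with 3 fitted higher and 2 fitted lower in the labelled knockout. The 6 markers summed to 124 to 133 CPM in the labelled knockout and 124 to 127 CPM in wildtype, most of it Pecam1, and their part in the Vcl difference was not tested.

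By a rule on likeness (Pearson's r of log2 CPM over the 6 libraries, among 9476 genes with a mean of at least 5 CPM), the 5 genes most like Vcl were Nt5c2, Ube2v2, Cep85, Glce and Pdgfrb, with r of 0.980 to 0.992 and Spearman's rho of 0.943 to 1. In all, 26 genes had r above 0.95. These are the top of a search over many genes in 6 libraries that share their scaling, so no p is given.

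The Rap1 GTPases, the switch of the pathway, had values that overlapped between the genotypes. Rap1a (chromosome 3, 105727267 to 105801336, minus strand) had 103, 111 and 124 CPM in the labelled knockout, against 103, 99.6 and 116 CPM in wildtype. Its fold was 1.06 (95% interval 0.908 to 1.24; edgeR, adjusted p = 0.742). Rap1b (chromosome 10, 117813871 to 117846035, minus strand), whose protein is nearly the same as that of Rap1a, had 183, 204 and 208 CPM in the labelled knockout, against 179, 189 and 231 CPM in wildtype. Its fold was 0.992 (95% interval 0.834 to 1.18; edgeR, adjusted p = 0.974). Equality of the genotypes is not shown by these intervals. No run of 50 bases is shared between Rap1a and Rap1b transcripts, and Rap1a shares 8.27% of its 50-base runs with other annotated genes, chiefly the pseudogenes Gm9392 and Rap1a-ps2. Per kilobase of exon, Rap1a made up 38.5%, 37.7% and 39.7% of the Rap1 transcripts in the labelled knockout, against 38.9%, 36.9% and 35.8% in wildtype. The shares averaged 38.6% ± 0.990 and 37.2% ± 1.58 (SD, n = 3 each), and the difference did not pass a two-sided exact permutation test (p = 0.3, where the smallest possible is 0.1).

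Among Sipa1, Rassf5 and Apbb1ip, whose proteins act on Rap1 or bind its active form, Sipa1 had the fold farthest from 1. Sipa1 encodes a GTPase-activating protein that returns Rap1 to its inactive state (chromosome 19, 5651185 to 5663707, minus strand). It had 166, 167 and 146 CPM in the labelled knockout, against 199, 213 and 188 CPM in wildtype. Every labelled knockout library lay below every wildtype library, and replicate 3 was the lowest library of each genotype. The fold was 0.798 (95% interval 0.688 to 0.925), a log2 fold of -0.33 ± 0.0971 (SE; edgeR, unadjusted p = 0.00621, adjusted p = 0.187). Sipa1 shares no 50-base run with another annotated gene. Per Rap1 transcript (Rap1a plus Rap1b, each per kilobase of exon), the log2 ratio of Sipa1 was -1.46, -1.58 and -1.86 in the labelled knockout, against -1.18, -1.11 and -1.55 in wildtype. The ratios overlap, because wildtype replicate 3 lay below labelled knockout replicate 1. Their means of -1.63 ± 0.206 and -1.28 ± 0.241 (SD, n = 3 each) differed by -0.35, which did not pass a two-sided exact permutation test (p = 0.2).

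Rassf5 and Apbb1ip encode effectors that bind active Rap1. Rassf5 gives RAPL, which couples Rap1 to the integrin LFA-1 and to the kinase encoded by Stk4 (chromosome 1, 131176410 to 131245258, minus strand). It had 138, 159 and 157 CPM in the labelled knockout, against 162, 166 and 178 CPM in wildtype. The groups did not overlap, but the gap between labelled knockout replicate 2 and wildtype replicate 1 was small beside the spread within each group (11.6 and 8.18 CPM, SD, n = 3). The fold was 0.899 (95% interval 0.779 to 1.04; edgeR, adjusted p = 0.477). Apbb1ip gives RIAM, which bridges Rap1 to talin (chromosome 2, 22774094 to 22875653, plus strand). It had 157, 152 and 137 CPM in the labelled knockout, against 144, 159 and 179 CPM in wildtype. The groups overlapped, at a fold of 0.925 (95% interval 0.790 to 1.08; edgeR, adjusted p = 0.660).

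The adaptor pair that links the T cell receptor to Rap1 and its effectors had nearly equal means in the genotypes. Skap1 (chromosome 11, 96464593 to 96759130, plus strand) had 186, 210 and 218 CPM in the labelled knockout, against 219, 185 and 191 CPM in wildtype. Fyb, which encodes the adaptor ADAP, the binding partner and stabiliser of the Skap1 protein (chromosome 15, 6522853 to 6663313, plus strand), had 332, 296 and 269 CPM in the labelled knockout, against 261, 305 and 326 CPM in wildtype. The groups overlapped for both, and within each genotype the library with the most Fyb had less Skap1 than the library with the least Fyb. Folds were 1.03 for Skap1 (95% interval 0.880 to 1.21) and 1.01 for Fyb (95% interval 0.840 to 1.21), with adjusted p of 0.878 and 0.979 by edgeR. Of the 50-base runs of Fyb, 9.62% also occur in other annotated genes, led by Phb, the antisense gene Gm2245 and the pseudogene Gm7666, the last 2 of which overlap Fyb. Skap2, the paralog of Skap1 that is common in myeloid cells, had 8.34, 13.8 and 15.8 CPM in the labelled knockout, against 11.6, 10.1 and 10.1 CPM in wildtype. Per kilobase of exon Skap1 was 97.1%, 95.9% and 95.5% of the Skap transcripts in the labelled knockout, against 96.6%, 96.5% and 96.6% in wildtype (two-sided exact permutation p = 0.4). Summed macrophage markers came to 68.0, 111 and 222 CPM in the labelled knockout, against 119, 88.8 and 86.6 CPM in wildtype. The labelled knockout libraries stand in the same order for Skap2 and for these markers. Dendritic cell markers (45.2, 117 and 155 CPM) and B cell markers (26.2, 45.1 and 53.6 CPM) had that order too. The part of macrophages or of other cell types in the Skap2 level was not tested.

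**Figure D2:**
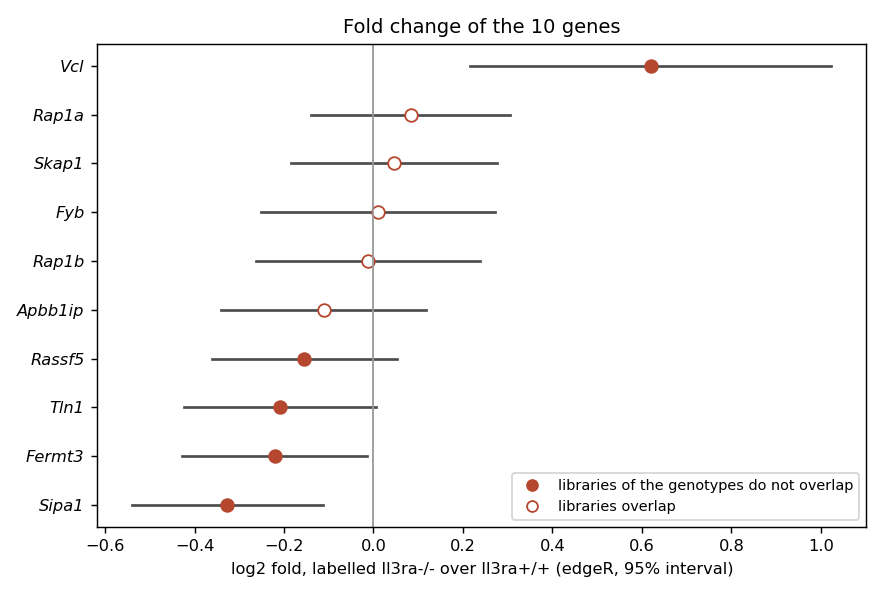
Log2 fold of each of the 10 genes, labelled Il3ra-/- over Il3ra+/+, with the 95% interval from edgeR's quasi-likelihood fit. Filled points mark genes whose libraries do not overlap between the genotypes. Vcl (0.62) stands on the higher side, Sipa1 (-0.33), Fermt3 (-0.22), Tln1 (-0.21) and Rassf5 (-0.15) on the lower side, and the intervals of all but Vcl, Sipa1 and Fermt3 include 0.

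Set on a scale per exon length, 9 of the 10 genes were within a few-fold of one another and Vcl was far below them. In RPKM (CPM divided by exon length in kilobases), Tln1 averaged 64.5 ± 1.56 in the labelled knockout and 74.5 ± 2.99 in wildtype (SD, n = 3 each, as for the other levels). Rap1b averaged 68.7 ± 4.73 and 69.3 ± 9.55, and its libraries overlapped those of Tln1. Fermt3 (49.3 ± 2.41 in the labelled knockout and 57.4 ± 0.417 in wildtype) and Fyb (55.6 ± 5.91 and 55.2 ± 6.18) came next and overlapped each other, below every library of Rap1b. Sipa1 averaged 36.1 ± 2.70 in the labelled knockout and 45.2 ± 2.84 in wildtype, and overlapped Rassf5 (37.9 ± 2.90 and 42.2 ± 2.05), which overlapped Rap1a (43.2 ± 3.96 and 40.8 ± 3.38). Skap1 (27.4 ± 2.27 and 26.6 ± 2.39) lay below all 3, and Apbb1ip (20.1 ± 1.41 and 21.7 ± 2.36) below every library of Skap1. Vcl averaged 0.599 ± 0.0560 in the labelled knockout and 0.390 ± 0.0488 in wildtype, 55.7 times below Apbb1ip in wildtype. Of the paralogs, Fermt1 and Fermt2 had 13 and 6 counts at most in any library and were not tested, so Fermt3 was the kindlin gene with appreciable counts.

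The wider pathway was taken from 8 lists of 101 genes in all, of which 91 were tested. None passed edgeR's test over all genes. At an unadjusted p under 0.05 there were 23, with 5 higher and 18 lower in the labelled knockout, where 14.6% of all tested genes met that level (8.01% higher and 6.6% lower). The median log2 fold of the 91 was -0.13 (0.01 over all tested genes). DESeq2 called 9 of them (Rasgrp4, Rasal3, Lat, Carmil2, Itgal, Itgb2, Sharpin, Dok2 and Kank2), against 4.02% of all the genes it tested. By limma-voom 0 were called and 21 had an unadjusted p under 0.05, where 14.5% of all tested genes did. Without labelled knockout replicate 3 the count at an unadjusted p under 0.05 was 14 (9.13% of all genes tested then), and without wildtype replicate 2 it was 15 (6.84%). The lists were chosen with earlier results of these data known.

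Upstream of Rap1, adaptors, kinases and actin regulators of the antigen receptor lay on the lower side, with 18 of 20 fitted lower, where 48.8% of all tested genes were. Of these, 6 were at an unadjusted p under 0.05, against 6.6% of all tested genes on that side. Lat, the membrane scaffold of the T cell receptor, had 712, 686 and 607 CPM in the labelled knockout, against 804, 940 and 841 CPM in wildtype (fold 0.776; edgeR, adjusted p = 0.198). Carmil2, a regulator of actin capping in T cells, had 534, 549 and 455 CPM, against 699, 920 and 613 CPM in wildtype (fold 0.689; edgeR, adjusted p = 0.169). Prkd2, a kinase activated through antigen receptors, had a fold of 0.790 (edgeR, adjusted p = 0.204). The scaffold gene Lcp2 had a fold of 0.901 and the Rassf5 partner Stk4 one of 0.907, with libraries that overlapped.

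Among 11 exchange factors of Rap and Ras, Rasgrp2, which loads Rap1 in response to calcium and diacylglycerol, had 211, 177 and 146 CPM in the labelled knockout, against 212, 286 and 234 CPM in wildtype. The highest labelled knockout library, replicate 1, came close to the lowest wildtype library, also replicate 1, and the fold was 0.730 (95% interval 0.582 to 0.914; edgeR, unadjusted p = 0.0106, adjusted p = 0.217). Rasgrp4, of the same family, had 25.9, 20.9 and 22.3 CPM in the labelled knockout, against 36.3, 34.4 and 29.9 CPM in wildtype (fold 0.686; edgeR, adjusted p = 0.139). Rasgrp1, the Ras exchange factor of thymocytes, had a fold of 0.866 and overlapping libraries (edgeR, adjusted p = 0.406). The other 8 had an unadjusted p above 0.05. Among 8 GTPase-activating proteins, Rasal3, which is known to act on Ras, had 436, 439 and 341 CPM in the labelled knockout, against 517, 594 and 549 CPM in wildtype (fold 0.733; edgeR, adjusted p = 0.165). Sipa1l3, a relative of Sipa1, had a fold of 0.783 with overlapping libraries (edgeR, adjusted p = 0.309), and Rap1gap2, a Rap1 inhibitor, one of 1.35 (edgeR, adjusted p = 0.416).

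The chains of LFA-1 were on the same side as Tln1 and Fermt3, while the 13 integrin chains as a list split into 6 fitted higher and 7 fitted lower. Itgal and Itgb2 encode the 2 chains of LFA-1, the main integrin of T cells. Itgal had 613, 612 and 570 CPM in the labelled knockout, against 722, 821 and 730 CPM in wildtype (fold 0.789; edgeR, adjusted p = 0.196). Itgb2 had 248, 267 and 253 CPM in the labelled knockout, against 337, 316 and 337 CPM in wildtype (fold 0.776; edgeR, adjusted p = 0.151). Neither overlapped between the genotypes, and DESeq2 called both (adjusted p = 0.0360 and 0.0144). Of the 13 chains, 3 had an unadjusted p under 0.05, all lower, where 6.6% of all tested genes were, the third being Itgb7 (fold 0.846; edgeR, adjusted p = 0.332). Of the 4 tested ligands 0 did, and Icam1, a ligand of LFA-1, had a fold of 0.862 (edgeR, adjusted p = 0.493). The largest ligand fold, 3.01 for the matrix gene Fn1, rested on labelled knockout replicate 3, without which its log2 fold was -0.18.

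Among 9 tested modulators of integrins and talin, 3 were higher and 2 lower in the labelled knockout at an unadjusted p under 0.05, beside 8.01% and 6.6% of all tested genes. Sharpin, which holds integrins inactive, had 63.2, 67.1 and 56.7 CPM in the labelled knockout, against 81.7, 86.5 and 75.7 CPM in wildtype (fold 0.767; edgeR, adjusted p = 0.152). Dok2, an adaptor that restrains receptor signals in haematopoietic cells, had 81.0, 98.8 and 88.1 CPM in the labelled knockout, against 121, 129 and 116 CPM in wildtype (fold 0.733; edgeR, adjusted p = 0.139). Kank2, whose protein binds the talin rod, had 2.46, 1.53 and 3.58 CPM in the labelled knockout, against 1.43, 1.004 and 1.04 CPM in wildtype (fold 2.17; edgeR, adjusted p = 0.178), so it was low in every library. In the adhesion complex 15 of 17 tested genes were fitted lower, beside 48.8% of all tested genes. At an unadjusted p under 0.05 there were 3 lower and 1 higher, beside 6.6% and 8.01% of all tested genes. The focal adhesion kinases stood on opposite sides: Ptk2b, the one abundant in leukocytes, had a fold of 0.802 and Ptk2 one of 1.34 (edgeR, adjusted p = 0.187 and 0.282), both without overlap. Tgfb1i1, a relative of paxillin, had a fold of 0.554 with overlapping libraries (edgeR, adjusted p = 0.265). Of the 9 tested paralogs, Rassf3 had 15.8, 15.8 and 21.1 CPM in the labelled knockout, against 14.4, 12.1 and 12.6 CPM in wildtype (fold 1.35; edgeR, adjusted p = 0.222), and the other 8 had an unadjusted p above 0.05.

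**Figure D3:**
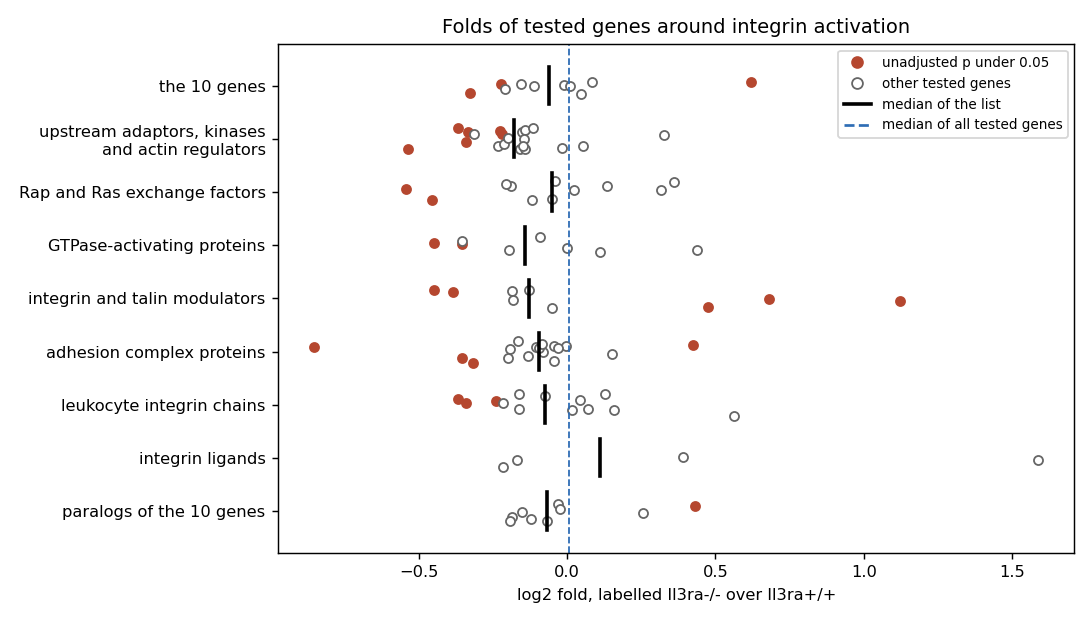
Log2 fold (labelled Il3ra-/- over Il3ra+/+) of the tested members of each list, with filled points at an unadjusted p under 0.05, a black bar at the list's median and a dashed line at the median of all tested genes. Most lists have medians below the dashed line, from -0.18 for the upstream list to -0.05 for the exchange factors, while the 4 ligands have a median of 0.11.

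Other gene groups differed between the libraries beside these genes. Over the 10 thymocyte genes the log2 folds had a median of -0.19, and 6 of them did not overlap, all lower in the labelled knockout, where 9.38% of all tested genes were. A list of 10 genes of mature single-positive thymocytes summed to 1085 to 1252 CPM in the labelled knockout and 1318 to 1437 CPM in wildtype, though its median log2 fold was -0.05. Of 20 cell cycle genes, 20 had an unadjusted p under 0.05 and all were higher, where 8.01% of all tested genes were, summing to 4564 to 5984 CPM in the labelled knockout and 3423 to 4285 CPM in wildtype. None of these lists had a member past the adjusted threshold. Thus Tln1, Fermt3, Sipa1, Itgal and Itgb2 stood on the side of the thymocyte genes and Vcl on that of the cell cycle genes. Macrophage and neutrophil markers were on the side of Vcl too, with 8 of 8 and 7 of 7 fitted higher but 0 at an unadjusted p under 0.05. Labelled knockout replicate 1 had the highest cell cycle sum (5984 CPM) but the lowest Vcl of its genotype. Wildtype replicate 2 had the lowest sum (3423 CPM) but the highest Vcl of its genotype. The part of cell stage, cycling or cell types in the levels of these genes was not tested. Neutrophil markers reached 73.9, 36.03 and 420 CPM in the labelled knockout libraries, against 33.3 to 105 CPM in wildtype, and dendritic cell markers to 45.2, 117 and 155 CPM against 92.8 to 99.7 CPM. Platelets are rich in talin, kindlin-3, Rap1b and Rasgrp2. Of 7 platelet markers, Gp1bb had 0 counts in every library, and Pf4, Ppbp, Gp9 and Treml1 were below 1 CPM throughout. Itga2b and Gp1ba reached 1 CPM in some library. The list of 7 summed to 2.17 to 3.28 CPM in the labelled knockout and 2.68 to 3.29 CPM in wildtype. The part of platelets in the levels given here was not tested.

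**Figure D4:**
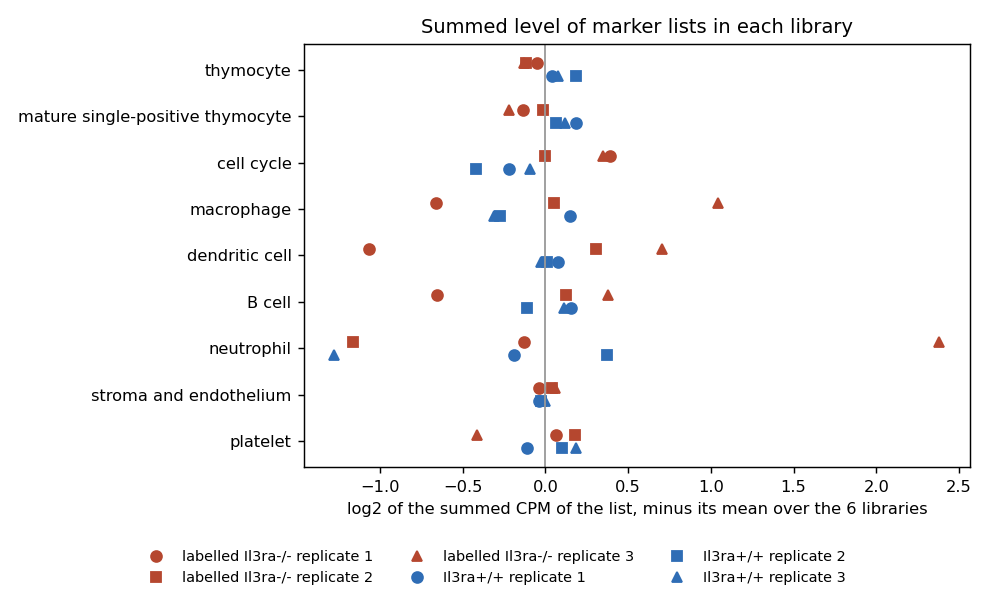
Summed CPM of each marker list in each library, as log2 minus the mean over the 6 libraries, with labelled Il3ra-/- drawn above Il3ra+/+ in each row. Thymocyte and mature thymocyte sums lie lower and cell cycle genes higher in the labelled knockout, and the neutrophil sums run from 36.03 to 420 CPM among its 3 libraries.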

How the data were processed

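Thymocyte messenger RNA of 6 mice was sequenced from stranded poly(A) libraries, per the labels' protocols. The authors deposited raw counts per Ensembl gene identifier, made with STAR 2.5.4b and featureCounts on GRCm38 per the submitters' processing notes. The annotation release, the strand setting and the handling of multi-mapping reads were not stated there. All 55536 identifiers matched GENCODE M21, which gave symbols, positions and exon lengths. Genes were filtered with filterByExpr (18690 left), scaled by TMM and compared with edgeR 4.0.16 (glmQLFit, robust; glmQLFTest; R 4.3.3), with no covariate and a Benjamini-Hochberg threshold of 0.05. The script recovered large known changes in simulated data, which does not show that folds as small as those of the 10 genes would be found. Folds are labelled knockout over wildtype. DESeq2 1.42.0, limma-voom (limma 3.58.1), other scalings, no filter, a replicate block, an Xist covariate and omitted libraries were alternatives. No library was a duplicate: within genotypes, the chi-square statistic of the counts was 41.2 to 96.5 times its degrees of freedom. Libraries held 55747682 to 82684219 counts, and the precision of a fold also depends on the spread between the 3 mice of a genotype. The 10 genes, the lists and the motifs were chosen with earlier results of these data known. Named in the pathway lists were up to 3 tested genes of smallest unadjusted p in each, and Rasgrp1, Rasgrp2, Stk4, Lcp2, Itgal, Itgb2 and Icam1 in any case. The marker genes, Ap3m1 and the untested kindlin genes fall outside that rule and were named with their values seen. Promoter sequences are RefSeq's on GRCm38.p6, and 8 of the 10 genes matched. Lists of thymic epithelium and erythroid markers, also counted, summed to 8.06 to 10.7 and 1.85 to 19.1 CPM in the labelled knockout and 5.94 to 9.14 and 4.86 to 32.8 CPM in wildtype, and B cell markers to 26.2 to 53.6 CPM in the labelled knockout and 38.2 to 45.9 CPM in wildtype.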

Additional observations from a re-analysis of the deposited data

How the results depend on the processing

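Of the 10 genes, 7 kept the side of their fold in all 14 alternatives. With 1 library left out, the log2 folds of the rest and of Fn1 spanned -0.084 to 0.11 for Rap1b, -0.0024 to 0.12 for Skap1, -0.076 to 0.081 for Fyb and -0.18 to 2.26 for Fn1. Rap1b turned to a log2 fold of 0.05 without labelled knockout replicate 1 and 0.11 without wildtype replicate 3. Skap1 turned to -0.0024 without labelled knockout replicate 3. Fyb turned to -0.07 without labelled knockout replicate 1, -0.076 without wildtype replicate 1 and -0.16 without replicate 1 of both genotypes, and Fn1 to -0.18 without labelled knockout replicate 3. The count of the 10 past the adjusted threshold was 1 by DESeq2 and 0 in the other 13 alternatives, and the count not overlapping was 8 without replicate 1 of both genotypes, where 2 libraries face 2 and 60.7% of all tested genes do not overlap. Calls over all genes were 587 of 14593 tested by DESeq2, 840 of 33265 with no low-count filter and 762 of 19127 without replicate 1 of both genotypes. They were 9 with the replicate block and 8 to 29 with 1 library left out. Calls in the wider pathway were 9, 8 and 8 in the first 3 of these settings. The pathway count at an unadjusted p under 0.05 was 41 without replicate 1 of both genotypes, where 27.2% of all tested genes met that level. With 1 library left out the count was 14 to 31, where 6.84% to 18.6% of all tested genes met it. The causes were not tested. Whether replicate numbers pair the libraries is not settled by so few of them. Deviations of same-numbered libraries correlated at 0.14, 0.30 and -0.03 over 11105 genes, and those of differently numbered libraries at -0.33 to 0.18. With the replicate block none of the 10 genes was called. Depth limits Vcl most, at 163 to 413 counts a library.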
